A study of Mus musculus with 6 samples.

Results

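HELLS is one member of a large family of chromatin remodeling ATPases, and the genes described here are 10 other members of that SNF2 family: Smarca2 and Smarca4, Smarca1 and Smarca5, Chd3, Chd4, Chd5 and Chd7, Atrx and Ino80. They were picked by symbol from the 24062 genes of a raw count table, and all 10 were found. The table holds 1 RNA-seq library from each of 3 Rb1/p107/Hells TKO retinae (Chx10-Cre, Rb1 lox/lox, p107-/-, Hells lox/lox) and 3 Rb1/p107 DKO retinae (Chx10-Cre, Rb1 lox/lox, p107-/-), all C57BL/6 by their labels (C57BL/6N in the study's methods) and at P21. Both genotypes thus carry the same floxed Rb1 and p107-/- alleles, the combination that gives retinoblastoma in mice, and the comparison asks what the added loss of Hells changed. Chx10-Cre acts in retinal progenitors in a mosaic pattern, so each retina is a mixture of recombined cells and cells whose Rb1 and Hells are intact. Exon 12 is the floxed part of Hells, so reads from its remaining exons still count.

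SNF2-family proteins use ATP to slide, evict or exchange nucleosomes, and most work as the motor of a larger complex. SMARCA4 (BRG1) and SMARCA2 (BRM) are alternative motors of the BAF complexes, SMARCA5 (SNF2H) and SMARCA1 (SNF2L) of the ISWI complexes, and CHD3, CHD4 and CHD5 of the deacetylase complex NuRD. CHD7 acts at enhancers in developing neural tissue, ATRX places a histone variant at repeats together with DAXX, and INO80 remodels nucleosomes during transcription and DNA repair. HELLS itself is known for helping DNA methylation of repeats.

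Hells is known as a target of the RB/E2F pathway, so the stretch with its E2F letters is shown first, and after it the DNA before the starts of Smarca4 and Smarca2, the alternative BAF motors. The sequences are those of RefSeq on GRCm38.p6, plus strand, 5′ to 3′. Hells is given from chr19:38930917-38930946, which lies inside the first exon that GENCODE gives to Hells and ahead of the RefSeq start, Smarca4 from chr9:21615919-21616168 and Smarca2 from chr19:26604910-26605049, both ahead of the annotated starts. Capitals mark the E2F letters in Hells and each CG pair, the site of DNA methylation, in Smarca4 and Smarca2.
Hells: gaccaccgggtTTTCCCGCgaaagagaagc
Smarca4: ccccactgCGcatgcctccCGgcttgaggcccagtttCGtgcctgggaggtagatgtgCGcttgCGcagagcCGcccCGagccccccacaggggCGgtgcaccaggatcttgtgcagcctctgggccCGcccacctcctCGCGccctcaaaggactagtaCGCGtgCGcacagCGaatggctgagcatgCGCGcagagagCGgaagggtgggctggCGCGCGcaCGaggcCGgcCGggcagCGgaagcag
Smarca2: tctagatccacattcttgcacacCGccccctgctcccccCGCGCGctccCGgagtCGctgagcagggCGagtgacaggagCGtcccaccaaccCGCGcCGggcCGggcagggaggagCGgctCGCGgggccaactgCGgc
The E2F letters searched on both strands were TTTCCCGC, TTTCGCGC, TTTGCCGC and TTTGGCGC, which do not contain one another. In windows from 250 bases before to 50 after a RefSeq start, 1 of them stood 62 bases before the start of Hells. None stood in the 10 windows of the 8 remodelers that the table holds (Smarca1, Smarca2, Smarca4, Smarca5, Chd4, Chd5, Atrx and Ino80, with Chd3 and Chd7 not analysed here), against 2.26% of all 32851 windows. The letters TAATCC, bound by the photoreceptor factor CRX, also stood in 0 of the 10 windows and in 7.06% of all windows. The 10 windows had between 9 and 33 CG pairs, where the median window of all genes had 7. The lowest counts, 9 and 11, were those of the X-linked genes Smarca1 and Atrx.

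On GRCm38 as annotated by GENCODE M21, Smarca2 lies at chr19:26605050-26778322 on the plus strand, on the same chromosome as Hells (chr19:38930915-38971051, plus strand), and Smarca4 at chr9:21616169-21704230, plus strand. Chd7 (chr4:8690406-8867659) and Chd5 (chr4:152338651-152390194) share chromosome 4, both on the plus strand, and Chd4 is at chr6:125095981-125130591, plus strand. The minus strand holds Chd3 (chr11:69343273-69369406), Smarca5 (chr8:80698507-80739497), Ino80 (chr2:119373042-119477687), Smarca1 (chrX:47809368-47892974) and Atrx (chrX:105797615-105929403). All are protein-coding genes, and their counts are sums over all annotated exons.

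The libraries held between 10343907 and 14203098 counts, and 16904 genes with a sum of at least 10 counts were tested, all 10 remodelers among them. Values are counts scaled by edgeR's TMM method to a common library size (normalized counts), and log2 fold changes are TKO over DKO. Hells stood at 532 ± 142 normalized counts in DKO and 70.9 ± 11.5 in TKO retinae (mean ± SD of 3), and its groups did not overlap. Rb1, named after its values were seen, is targeted in both genotypes and stood at 591 ± 23.5 normalized counts in DKO and 748 ± 66.0 in TKO retinae, again with no overlap. The log2 fold change of Rb1 was 0.34 (edgeR adjusted p = 0.0388), close in size to that of Smarca2, and its adjusted p was above 0.05 on leaving out any retina but TKO replicate 3 (0.0747 to 0.129 against 0.0216) and 0.176 with total counts as the only scaling. Its exons overlap those of genes on the other strand, Lpar6 and Rcbtb2. The 2 genotypes also differed across the transcriptome, with 16.6% of all genes past an adjusted p of 0.05 in edgeR's quasi-likelihood test (7.35% higher and 9.2% lower in TKO retinae). The tissue label was checked against its markers, and all 10 rod genes listed were counted in every library. The labels give each retina a number of its own but do not name the animal, and the p-values measure the spread between these retinae.

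Of the 10 remodelers, Chd7 and Smarca2 were higher in TKO retinae and the other 8 did not pass the test. That is 20% of the remodelers in either direction, a share near the 16.6% of all genes, with 2 of 10 higher against 7.35% and 0 of 10 lower against 9.2%. DESeq2 called the same pair and no other. In neither tool did a remodeler meet the study's own criteria, which add a log2 change of 1 or more and a mean count of 10 or more. In edgeR's fit 6.35% of all genes met them, and 0 of 10 is near that share. Chd7 rose 1.63-fold (95% interval 1.34 to 1.98) and Smarca2 rose 1.27-fold (1.12 to 1.44), by edgeR's fit. Among the 8 others, the 95% intervals of the fold lay between 0.701 and 1.36, and Chd7's fitted fold lay outside each of them. In a bulk retina, fewer cells of a type and less RNA per cell cannot be told apart.

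**Figure D1:**
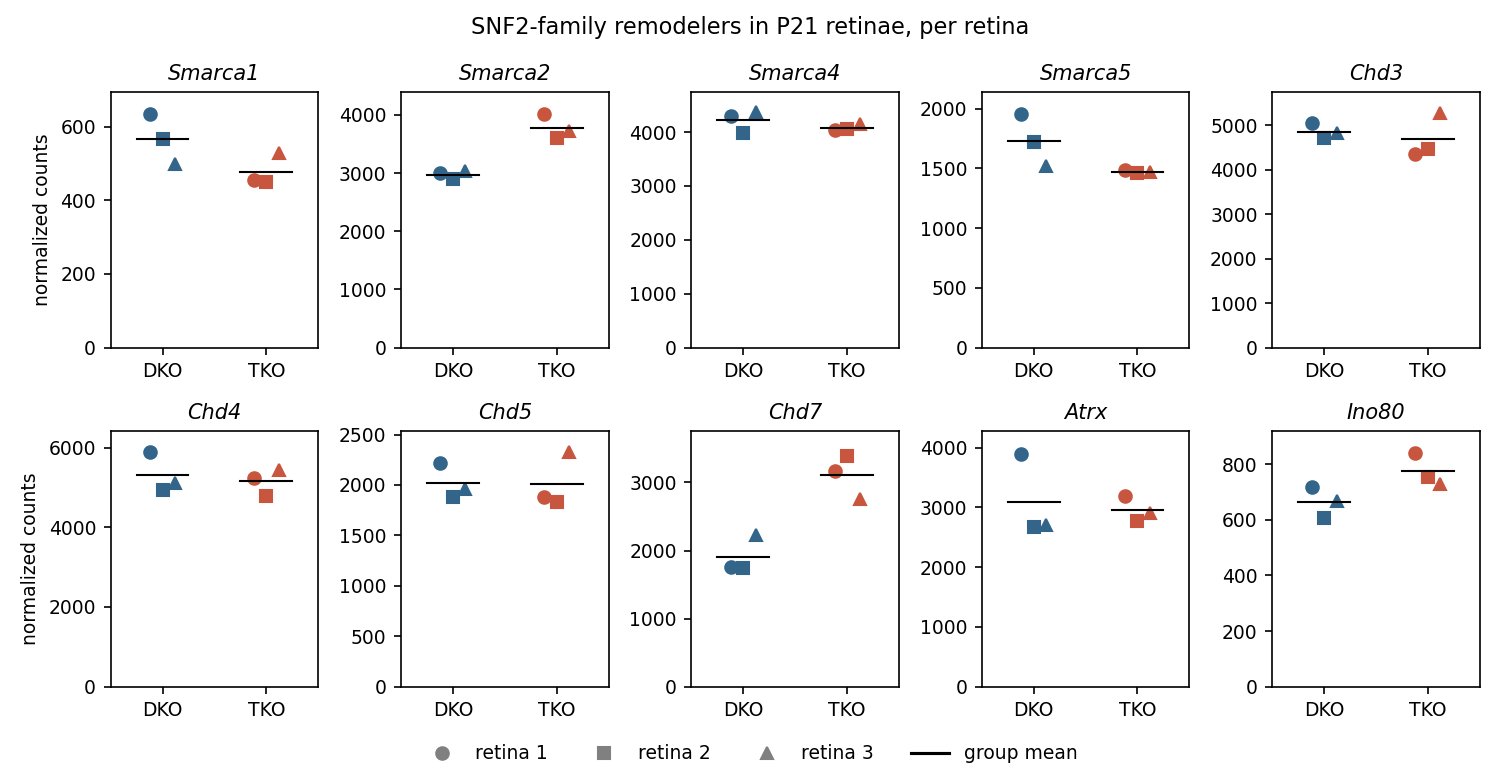
Normalized counts (vertical axes, from 0) of the 10 remodelers in each DKO (blue) and TKO (red) retina, with the replicate shown by the symbol and the group mean by a line. The groups stand apart for Chd7, Smarca2, Smarca5 and Ino80, and DKO replicate 1 stands above the other retinae for Atrx.

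Of the BAF motors, Smarca2 rose and Smarca4 did not pass the test. In replicates 1, 2 and 3, Smarca2 stood at 2996, 2895 and 3031 normalized counts in DKO and at 4010.2, 3602 and 3721 in TKO retinae. Every TKO retina was above every DKO retina, and the replicates of each genotype lay close together. Its log2 fold change was 0.35 with a standard error of 0.0797 (edgeR quasi-likelihood test, adjusted p = 0.0234). Smarca4 stood at 4291, 3983 and 4372 in DKO and at 4033, 4065 and 4152 in TKO retinae. These ranges overlapped, and at -0.046 (standard error 0.0801) its log2 fold change did not exceed the replicate spread (edgeR adjusted p = 0.727). The call for Smarca2 needed most of the retinae: leaving out TKO replicate 1 gave an edgeR adjusted p of 0.0790, TKO replicate 2 gave 0.0689, DKO replicate 1 gave 0.0710 and DKO replicate 2 gave 0.101, while its log2 fold change stayed between 0.30 and 0.38. With libraries scaled by their total counts alone, under which the median over all genes went from -0.011 to -0.17, Smarca2 was at 0.19 (edgeR adjusted p = 0.138).

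Among the CHD proteins, Chd7 rose and the NuRD motors did not pass the test. In replicates 1, 2 and 3, Chd7 stood at 1753, 1738 and 2228 normalized counts in DKO and at 3174, 3395 and 2750.2 in TKO retinae. No TKO retina overlapped a DKO retina, and the replicates numbered 3 of both genotypes were nearest to each other. Its log2 fold change was 0.70 with a standard error of 0.124 (edgeR quasi-likelihood test, adjusted p = 0.0106), the largest change of the 10 genes in this fit. Leaving out TKO replicate 2 gave an edgeR adjusted p of 0.0522, DKO replicate 1 gave 0.0503 and DKO replicate 2 gave 0.0532, each just above 0.05, and leaving out each of the others gave 0.0040 to 0.0323.

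Chd4, the main NuRD motor in most tissues, had the highest counts of the 10 remodelers. It stood at 5885, 4946 and 5118 normalized counts in DKO and at 5238, 4776 and 5436 in TKO retinae. Chd3 stood at 5043, 4718 and 4816 in DKO and at 4349, 4462 and 5276 in TKO retinae. Chd5, the motor found mainly in neurons, stood at 2214, 1881 and 1959 in DKO and at 1885, 1831 and 2323 in TKO retinae. The genotypes overlapped for all 3 genes, with TKO replicate 3 at the top of its group each time. Their log2 fold changes were -0.049 for Chd3, -0.046 for Chd4 and -0.0037 for Chd5, with edgeR adjusted p of 0.766 or more.

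Both ISWI motors had log2 fold changes below 0 that did not pass the test. Smarca5 stood at 1956, 1717 and 1523 normalized counts in DKO and at 1486, 1459.8 and 1473 in TKO retinae. All TKO values lay below all DKO values, but DKO replicate 3 was only just above them, and the log2 fold change was -0.23 (standard error 0.0984, edgeR adjusted p = 0.139). Smarca5 passed the test as lower in 2 alternative fits: without DKO replicate 3 (log2 fold change -0.32, edgeR adjusted p = 0.0458) and with scaling by total counts only (-0.39, adjusted p = 0.0387, where the median of all genes was -0.17). Smarca1 stood at 633, 567 and 498 in DKO and at 454, 450.5 and 529 in TKO retinae. The groups overlapped between TKO replicate 3 and DKO replicate 3, and the log2 fold change was -0.25 (standard error 0.117, edgeR adjusted p = 0.183). Smarca1 is the least counted of the 10. A further gene annotated on the same strand, Gm45872, shares 3.61% of the exonic bases of Smarca5, the largest such share among the 10 genes.

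Ino80 stood at 718, 608 and 667 normalized counts in DKO and at 839, 755 and 730.2 in TKO retinae. The TKO values were all above the DKO values, by the small gap between TKO replicate 3 and DKO replicate 1. The log2 fold change was 0.22 (standard error 0.0953, edgeR adjusted p = 0.144). Atrx stood at 3899, 2679 and 2702 in DKO and at 3186, 2764 and 2902 in TKO retinae. DKO replicate 1 was far above the 2 other DKO retinae, and the coefficient of variation of Atrx in DKO retinae, 22.6%, was the highest of the 10 genes in either genotype. The log2 fold change of Atrx was -0.068 (standard error 0.150, edgeR adjusted p = 0.788).

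Atrx and Smarca1 are X-linked, and the retinae were of both sexes: Xist was among the well-counted genes in 2 TKO and 1 DKO retinae, and Y-linked genes in the 1 other TKO and the 2 other DKO retinae. With a term for sex, a fit added after seeing the data, the log2 fold change was 0.011 for Atrx and -0.21 for Smarca1, neither past the test (edgeR adjusted p = 0.968 for Atrx and 0.295 for Smarca1).

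**Figure D2:**
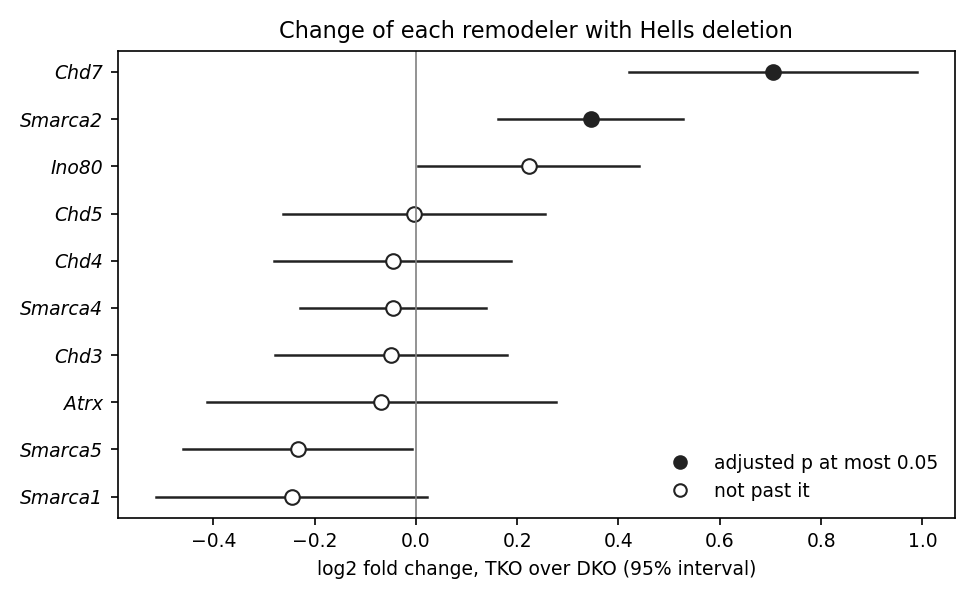
Log2 fold change of each remodeler, TKO over DKO (horizontal axis), with its 95% interval from edgeR's quasi-likelihood fit, where filled points passed an adjusted p of 0.05. Chd7 at 0.70 and Smarca2 at 0.35 passed, and the intervals of Ino80 and Smarca5 reach to just short of 0.

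The groups did not overlap for 4 of the 10 remodelers (40%), Smarca2, Smarca5, Chd7 and Ino80, against 38.6% of all genes tested. The coefficient of variation between replicates of a genotype ran from 0.896% to 22.6% over the 10 genes, with a median of 8.49%, and the standard errors of the log2 fold changes ran from 0.0797 to 0.150. The median size of the change, regardless of sign, was 0.15 on the log2 scale over the remodelers and 0.25 over all genes tested. Across the 15 alternative fits, Smarca2 passed in 9 and Chd7 in 11, both higher in every one.

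Each pair of alternative motors was also set side by side within a retina, where the scaling of libraries cancels. In DKO retinae Smarca2 had 0.698, 0.727 and 0.693 counts for each count of Smarca4. In TKO retinae the ratio was 0.994, 0.886 and 0.896, so the TKO retinae all lay above the DKO retinae. The log2 ratio was -0.50 ± 0.037 in DKO and -0.11 ± 0.092 in TKO retinae (mean ± SD of 3), so it differed by 0.39, or 1.31-fold. An exact two-sided permutation test gave p = 0.1, the smallest that 3 retinae against 3 allow, and 0.4 after Benjamini-Hochberg adjustment over the 4 pairs compared. The difference stayed between 0.34 and 0.42 with any 1 retina left out. The other pairs differed by less than the spread between replicates. The difference in log2 ratio was -0.016 for Smarca1 over Smarca5 (exact permutation p = 1), -0.011 for Chd3 over Chd4 (p = 0.8) and 0.036 for Chd5 over Chd4 (p = 0.7).

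**Figure D3:**
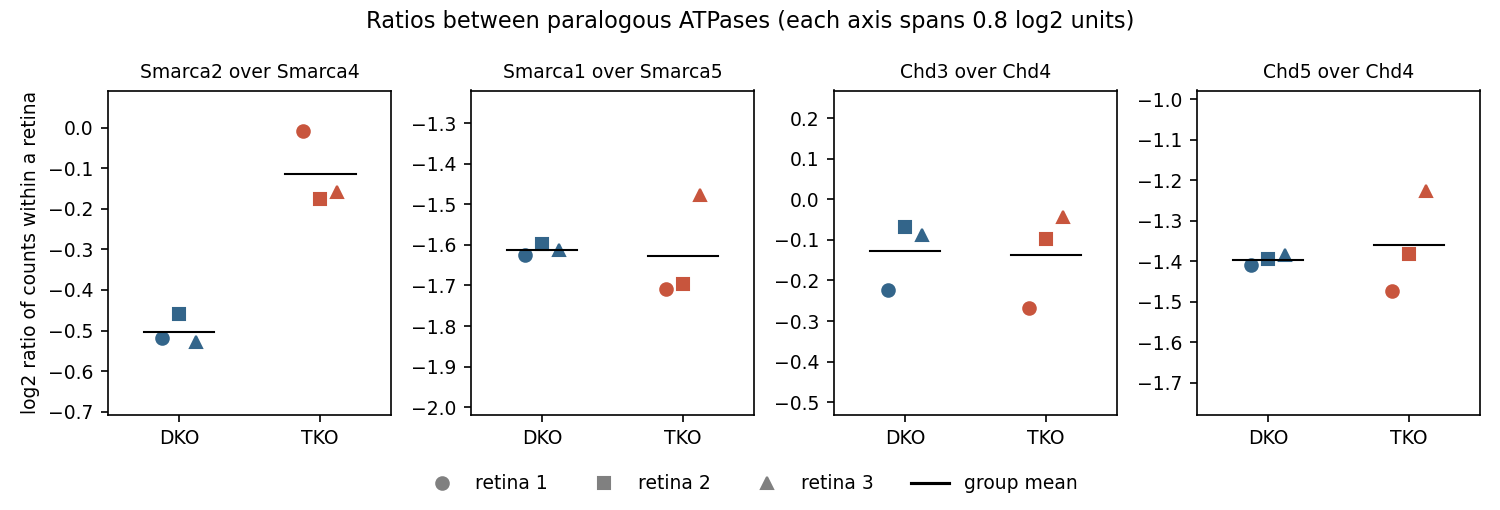
Log2 ratio of the counts of 2 related remodelers within each retina (vertical axes, each spanning the same height), for DKO (blue) and TKO (red) retinae with group means as lines. The ratio of Smarca2 to Smarca4 was -0.50 in DKO and -0.11 in TKO retinae with no overlap, and the other 3 ratios overlapped.

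To compare levels between genes, counts were divided by the length of the exons of a gene, all annotated exons merged, and scaled to the same total in each library (TPM scale). Chd4 (244 ± 29.3), Smarca4 (239 ± 12.3) and Chd3 (211 ± 12.7) had the highest levels in DKO retinae (SD, n = 3). Chd4 and Smarca4 overlapped, and Chd3 lay below both means without overlapping Smarca4. A gap followed, below which Smarca5 at 82.0, Chd5 at 77.4 and Smarca2 at 76.5 overlapped each with its neighbour in the order. Atrx (52.4) and Chd7 (50.7) came next and overlapped, and Ino80 (35.9) and Smarca1 (34.1) closed the order and overlapped too. In TKO retinae Chd4, Smarca4 and Chd3 also led, and Smarca2 at 88.5 and then Chd7 at 75.1 came after them, with no overlap between the pair. Levels on this scale depend on the length used. With the longest annotated transcript (5921 in place of 14269 bases), Smarca2 was at 137 in DKO retinae and stood next below Smarca4 at 181, while Atrx was at 82.6. In TKO retinae Smarca2 was then at 158.9 and overlapped Smarca4 at 159.6. These counts are per gene and do not tell the transcripts of Smarca2 or Atrx apart.

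**Figure D4:**
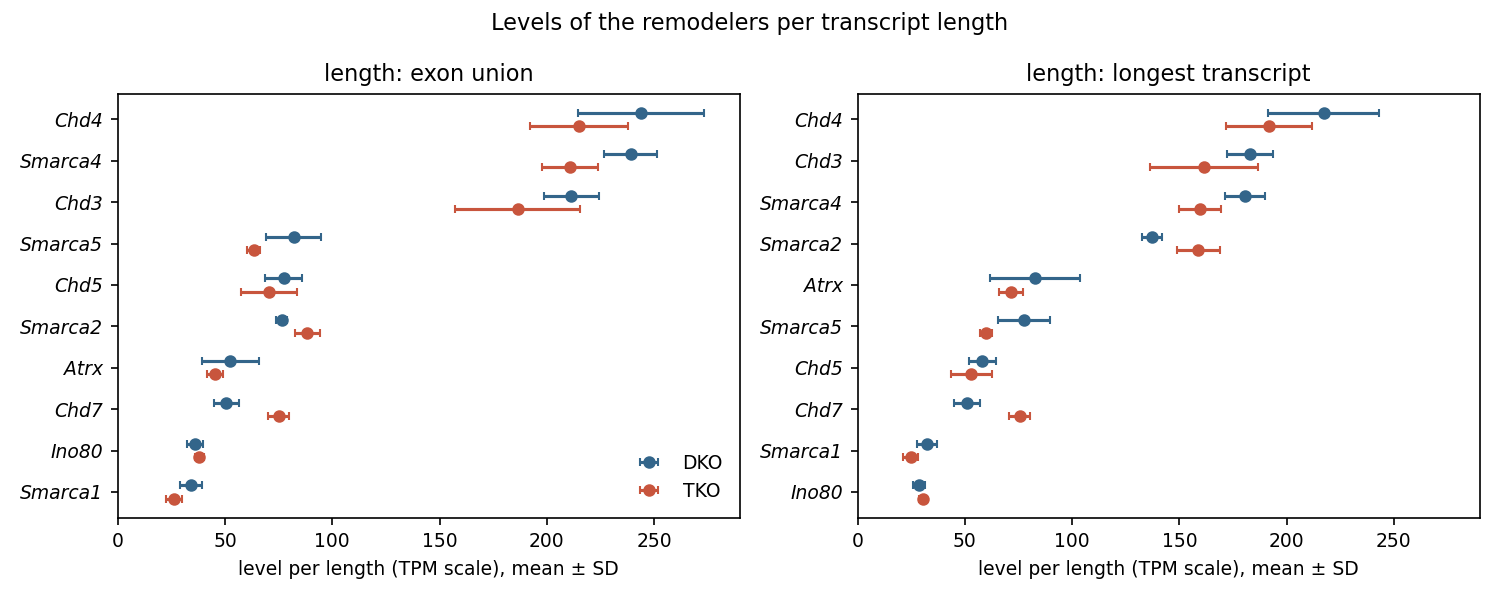
Level per length of each remodeler (horizontal axis, TPM scale from 0) in DKO (blue) and TKO (red) retinae, as mean and SD of 3 retinae, with the merged exons (left) or the longest transcript (right) as the length. Chd4, Smarca4 and Chd3 have the highest means in both panels. Smarca2 moves up with the shorter length, to 137 in DKO and 158.9 in TKO retinae, where it overlapped Smarca4 at 159.6.

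Markers of several cell types moved with the genotype. All 10 rod genes listed rose, and their summed normalized counts in replicates 1, 2 and 3 were 91465, 87200 and 165939 in DKO and 498952, 420180 and 255494 in TKO retinae. Of 10 genes of mitosis 9 fell, and their sum was 12855, 9534 and 6245 in DKO and 991, 1659 and 2809 in TKO retinae. The replicates numbered 3 were thus nearest to each other in both sums, as they were for Chd7. DKO replicate 3 was also the lowest DKO retina for Smarca5 and Smarca1. The genotypes did not overlap for Chd7, Smarca2 or the rod sums, so only the order within a genotype could differ. Within DKO retinae both genes had the order of the rod sums, though Smarca2 spanned only 2895 to 3031 there. Within TKO retinae a pair changed places (replicates 1 and 2 for Chd7, 2 and 3 for Smarca2). Of 8 genes of Müller glia 3 rose and 1 fell. Their sums in replicates 1, 2 and 3 were 51969, 51149 and 59024 in DKO and 74185, 76478 and 72651 in TKO retinae. These sums did not overlap either. They had the order of Chd7 within both genotypes and that of Smarca2 within DKO retinae only. Most of their rise came from Glul, at 14069 ± 1445 in DKO and 31230 ± 3862 in TKO retinae (mean ± SD of 3). Slc1a3, Aqp4, Dkk3 and Clu did not pass. Of 8 microglial genes 5 fell (1672 to 2922 in TKO against 3330.1 to 5048 in DKO retinae). Of 9 lens genes 4 rose, with sums of 522 to 3480 in TKO, TKO replicate 2 highest, and 105 to 110.3 in DKO retinae. Of the other lists, 2 of 8 cone, 2 of 10 bipolar, 1 of 8 RPE and 1 of 5 endothelial genes rose, and no amacrine, horizontal or ganglion cell gene passed the edgeR test. Over all genes tested, 7.35% were higher and 9.2% lower. The part of these cell types in the values of Chd7 and Smarca2 was not tested.

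The partners of the 10 motors and the other SNF2 genes, taken from hand-written lists of 86 genes tested, moved in both directions. Of the 86 genes 9 were higher and 14 lower, 26.7% in all against 16.6% of all genes tested, and their median log2 fold change was 0.019 where that of all genes was -0.011. Leaving out 1 retina left 4 calls when it was TKO replicate 1, 1 for TKO replicate 2, 3 for DKO replicate 1 and 1 for DKO replicate 2, against 24 and 26 for the replicates numbered 3. Over all genes, 3.23% were higher and 4.57% lower without TKO replicate 1, and 1.84% and 2.41% without TKO replicate 2. The shares were 1.87% and 2.99% without DKO replicate 1, and 1.28% and 2.6% without DKO replicate 2. Without any 1 of these retinae the list's share was no longer above that of all genes. DESeq2 called 28, 12 higher and 16 lower. With libraries scaled by total counts alone the split was 5 higher and 21 lower, as the calls over all genes went from 7.35% higher and 9.2% lower to 4.6% and 15.4%.

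Among the other SNF2 genes, 4 of 20 rose and 4 fell, against 7.35% and 9.2% of all genes, with a median log2 fold change of 0.090. Under total counts alone 2 were higher and 6 lower and the median was -0.069. With the added sex term 4 were higher and 2 lower, in a fit where 5.71% of all genes were higher and 7.23% lower. Those that fell were Ercc6l, Rad54l, Rad54b and Ttf2. Ercc6l (PICH), which resolves DNA bridges in anaphase, had a log2 fold change of -1.82. Rad54l and Rad54b, of recombination repair, had -1.91 and -0.88, and the transcription terminator Ttf2 had -0.95. Those that rose moved less, Chd1l by 0.51, Hltf by 0.51, Btaf1 by 0.49 and Chd2 by 0.35. Chd9 and Chd6, with the highest mean counts, were at 0.083 and 0.14, and neither passed.

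Of 26 BAF and PBAF subunits 2 rose and 3 fell, a share near that of all genes, with a median log2 fold change of -0.055. Under total counts alone 1 was higher and 6 lower, with a median of -0.21. With the sex term 1 was higher and 1 lower, where 5.71% and 7.23% of all genes were. Smarcc1 (BAF155), a scaffold of the core, fell from 1422 ± 227 to 953 ± 83.6 normalized counts (SD, n = 3 each, log2 fold change -0.58, edgeR adjusted p = 0.0189), while its paralog Smarcc2 (BAF170), the most counted subunit, was at 5674 ± 128 in DKO and 5600.5 ± 242 in TKO retinae. Dpf3, a subunit that takes over in postmitotic neurons, had a log2 fold change of 0.71 and rose from 734 ± 52.7 to 1196 ± 243 normalized counts. Actl6b, also a neuronal variant, fell by 0.30 on the log2 scale, Bcl7a fell by 0.49 and Gltscr1l rose by 0.31. None of the 3 progenitor variants passed, with Ss18 at -0.39 and Actl6a at -0.23, whereas under total counts alone both were called lower (Ss18 -0.54, edgeR adjusted p = 0.0350, Actl6a -0.39, 0.0218), and Ss18 also without DKO replicate 3 (-0.51, 0.0128). Arid1a, the DNA-binding subunit of canonical BAF, was at 0.0051.

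The ISWI partners included the largest change of the lists. Baz1a (ACF1), which pairs with SMARCA5 in chromatin assembly, fell from 132 ± 31.0 to 29.8 ± 6.05 normalized counts (SD, n = 3 each, log2 fold change -2.15, edgeR adjusted p = 0.00554), and Pole3, a histone-fold subunit shared with DNA polymerase epsilon, fell by 0.70 on the log2 scale. Baz1a passed with any 1 retina left out, with edgeR adjusted p from 0.0024 to 0.0375. Cecr2 rose by 0.71. The other 6 of 9 partners did not pass, among them the most counted, Baz1b at -0.16 and Baz2a at 0.20. The partners called higher were 1 here, 2 when every gene with a count was kept and 4 with DESeq2, beside 2 lower each time. Over all genes, the main fit called 7.35% higher and 9.2% lower, and DESeq2 called 8.81% and 10.5%.

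Of 12 NuRD subunits 5 were lower and 1 higher, where 9.2% and 7.35% of all genes were. DESeq2 gave the same counts, and total counts alone gave 6 lower and 1 higher. The lower calls depended on the retinae. Without TKO replicate 2, DKO replicate 1 or DKO replicate 2, the 1 gene lower in all lists was Baz1a, so no NuRD subunit was. Without TKO replicate 1 all lists together had 3 lower. In the main fit Cdk2ap1 fell by 0.61, Hdac2 by 0.48, Mta1 by 0.47 and Rbbp7 by 0.42 on the log2 scale. Hdac1, named after its values were seen, was the other and fell by 0.33. Mta2 rose by 0.53, opposite to its paralog Mta1, and Rbbp4, the most counted, was at -0.20 without passing. The median of the list was -0.17, while the motors Chd3, Chd4 and Chd5 lay nearer to 0. Of 18 subunits of the INO80 and SRCAP complexes Actr8 alone passed, higher by 0.32, while with total counts alone 0 were higher and 1 lower and with the sex term none passed in edgeR, and Mcrs1 and Nfrkb were at 0.16 and 0.028. Daxx, the partner of ATRX, stood at 631 ± 74.1 normalized counts in DKO and 648 ± 30.3 in TKO retinae, and its log2 fold change of 0.037 did not pass (edgeR adjusted p = 0.832).

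**Figure D5:**
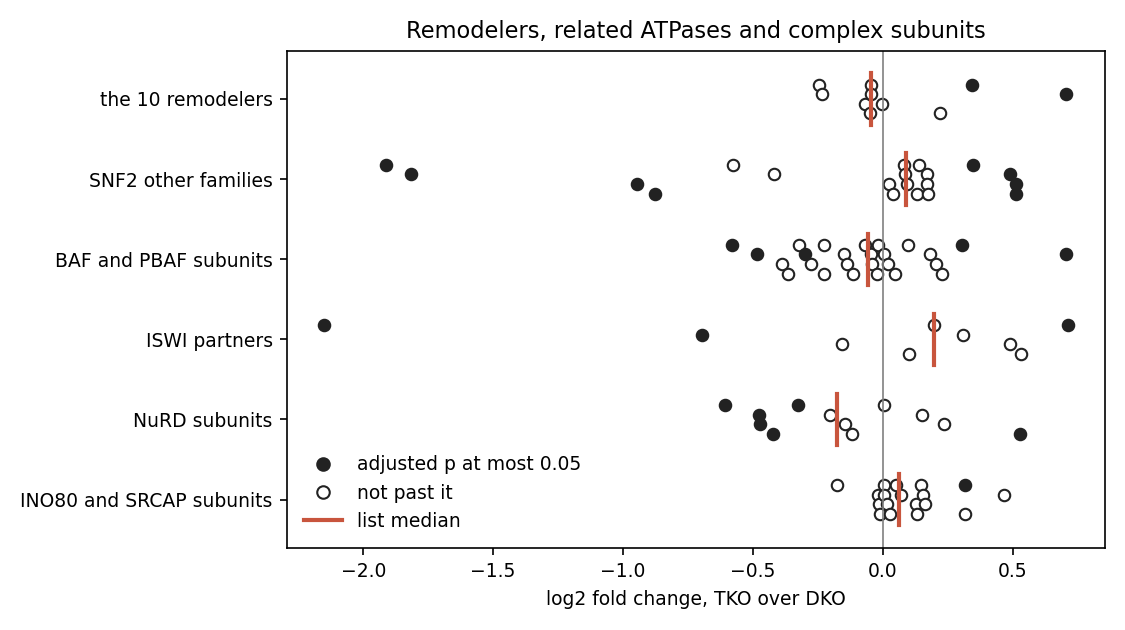
Log2 fold change, TKO over DKO (horizontal axis), of the 10 remodelers and of each tested gene in 5 lists, with filled points past an adjusted p of 0.05 in edgeR and a red bar at the median of each list. The 5 lists have medians from -0.17 (NuRD) to 0.20 (ISWI partners), and the 3 largest decreases are Baz1a, Rad54l and Ercc6l.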

How the data were processed

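Gene counts of the 6 retinae, 3 of each genotype, were analysed, with genotype and replicate number taken from the labels. The deposited values were raw counts per gene. Per the study's methods, the authors aligned read pairs from a stranded mRNA kit to GRCm38 with STAR, allowing reads with a few alignments, and counted them with HTSeq, whereas the submitters' processing notes name TopHat2 and featureCounts. The strand setting of the counting is not given in the sources used here. Whether reads shared by paralogs were left out or counted on more than 1 of them is not given either.

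Genes with a sum under 10 were removed, and the rest were tested with edgeR 4.0.16 in R 4.3.3 (TMM, quasi-likelihood F test, Benjamini-Hochberg over 16904 genes, threshold 0.05). The standard error is the log2 fold change over the square root of F. Ratios within a library used counts plus 0.5. Of the symbols, 94.5% matched GENCODE M21 (GRCm38), which gave lengths and positions. Counting error alone would give the remodelers a coefficient of variation of 1.3% to 4.89%, which was above the replicate spread in 2 of 20 gene and genotype pairs, Smarca4 and Smarca5 in TKO retinae.

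The members, the lists and the tests were chosen with earlier results of these data known. Named were the 10 remodelers, Hells, and from each list up to 4 genes passing in each direction and the 2 with the largest mean count. Srcap was listed but not analysed here. Markers of 11 retinal and neighbouring cell types and of mitosis were read as values. Alternatives were DESeq2 1.42.0, 3 other scalings, 2 other filters, robust dispersion, a block for the replicate number, fits without each retina, other thresholds, pseudocounts and lengths, and, added after seeing the data, a term for sex.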

Additional observations from a re-analysis of the deposited data

How the results depend on the processing

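Smarca2 and Chd7 were both called with DESeq2, with DESeq2's size factors or upper-quartile factors in edgeR, with both other filters, with robust dispersion and with the added sex term. The number of remodelers called was 0 at an adjusted p of 0.01 in edgeR and 2 in DESeq2, and ran from 0 to 3 with 1 retina left out. The number of list genes called, 23, ran from 1 to 26 with 1 retina left out and was 28 in DESeq2. With 1 retina left out, the share of all genes called ran from 1.28% to 9.64% higher and from 2.41% to 11.8% lower. Same-numbered retinae did not deviate together across genes (correlations 0.052, -0.045 and -0.16). With 3 retinae per genotype these correlations cannot tell whether the numbers pair the retinae, and the labels do not say. With the replicate number as a block, 0 remodelers and 0 list genes were called by edgeR, where 0.142% of all genes were called higher and 0.485% lower. In that fit the adjusted p from edgeR was 0.0682 for Smarca2 and 0.0631 for Chd7.

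Log2 fold changes near 0 took the other sign in some fits, none of them past the test. With 1 retina left out, they ran from -0.14 to 0.0026 for Chd3, -0.095 to 0.033 for Chd4, -0.11 to 0.068 for Chd5, -0.16 to 0.13 for Atrx, -0.028 to 0.19 for Chd9, -0.048 to 0.075 for Arid1a, -0.091 to 0.10 for Nfrkb, -0.049 to 0.014 for Smarcc2 and -0.022 to 0.14 for Daxx. Chd5 was at 0.0028 in DESeq2 and with its size factors in edgeR. With upper-quartile factors Arid1a was at -0.027 and Nfrkb at -0.0048. With total counts only, Chd9 was at -0.078, Chd6 at -0.018, Arid1a at -0.15, Mcrs1 at -0.0025, Nfrkb at -0.13 and Daxx at -0.12. With at least 10 counts required in every library Arid1a was at -0.0067. With the sex term Atrx was at 0.011 and Daxx at -0.020. The cause of these changes was not tested. Every remodeler had at least 396 counts in each library.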
